A study of Mus musculus with 12 samples.

Results

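Mice that ate rice as their carbohydrate source for 6 months were compared, at the level of liver RNA, with mice that ate corn starch and sucrose. The comparison was built from the sample titles and took in all 12 arrays of the series, 6 from rice-fed mice (3 DJ and 3 DJ526) and 6 from mice on starch and sucrose (3 Ctrl and 3 RS), 1 liver per array. All mice were C57BL/6N females that were 6 weeks old on arrival, and all ate a normal formula diet (NFD) that differed in 2 respects. Ctrl mice received the diet with starch and sucrose, and RS mice the same diet with added resveratrol, a plant stilbene. In the DJ diet the starch and sucrose were exchanged for Dongjin rice, and in the DJ526 diet for DJ526, a resveratrol-enriched line made from Dongjin by transfer of a stilbene synthase gene. Each group weighed equally, so that resveratrol was present in 1 of the 2 groups on either side. The rice that carried resveratrol also carried the transferred gene, so that these cannot be told apart within the rice diets. Resveratrol was added to the RS diet and made in the grain of DJ526. The methods do not give its content in either diet, so that DJ526 against RS may also hold a difference in dose or form. Per the methods, mice were housed together in cages, and the cages were assigned to the groups at random. The numbers per cage and per group given there make fewer cages per group than the 3 mice read. If this housing was kept, some of the 3 mice of each group shared a cage, and no cage held mice of different diets. The methods also state that the mice were divided into the groups at random after acclimation. The tests treat the mice as independent, so that their p-values and intervals do not allow for shared cages. The cage of each mouse, the hour of sampling and the feeding state at sampling are not given in the sources used here.

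Dietary sucrose is split into glucose and fructose, and starch and rice into glucose. Fructose is taken up and phosphorylated by the liver through Khk, and both sugars feed glycolysis, glycogen and the synthesis of new fatty acids. In the liver of rodents, the transcription factors ChREBP (Mlxipl) and SREBP-1c (Srebf1) are known to raise genes of glycolysis and lipogenesis when carbohydrate is plentiful. The comparison therefore sets diets with corn starch and sucrose against diets in which rice took the place of both, in a tissue where sugar supply is read by well-known genes. The loss of sucrose, the loss of corn starch and all that the rice brought cannot be told apart.

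The value of a probe is given as a log2 level, that is, log2 of its background-subtracted signal minus log2 of the 75th percentile of its array, so that 0 is the brightness of the 75th percentile. Levels are compared between arrays for 1 probe and not between probes. Between 73.0% and 80.8% of spots lay well above background per array, 27285 of the 39429 probes were so on all 12 arrays, and no spot was saturated. The number of arrays, 3 per group, limits the precision. The arrays lay on 3 slides, where slide 1 held Ctrl and DJ replicate 1, slide 2 the other DJ mice with RS replicates 1 and 2, and slide 3 DJ526 with RS replicate 3. Where within-slide differences are given below, they stand in that order. Each of them compares other groups of mice, and those of slides 1 and 3 rest on 1 mouse on 1 side. The groups were spread unevenly over the slides, and the main fit holds no term for the slide. A difference between slides 1 and 3 therefore enters the contrast of rice with starch and sucrose. The labels show separate mice, 1 for each array.

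No probe passed the test between rice and starch and sucrose. After Benjamini-Hochberg adjustment of the limma p-values, 0 of 39429 probes (0%) had a p under 0.05, and 1802 (4.57%) had an unadjusted p under 0.05, of which 788 were higher and 1014 lower in the rice-fed mice. Over the 27285 probes above background on all arrays, the median log2 difference was -0.0026, its median absolute value 0.078 and the median standard error 0.113. The 95% confidence interval lay within 1 log2 unit of 0 for 26195 of these probes (96.0%), and 37 had a difference of more than 1. Among the probes that were not above background on every array, the interval was as narrow for 55.9%. In both of the matched comparisons the count of calls was as low, with 0 (0%) between DJ and Ctrl and 3 (0.00761%) between DJ526 and RS, beside 2057 (5.22%) and 2169 (5.5%) at an unadjusted p under 0.05. The test of the difference between these comparisons called 0 (0%), with 2403 (6.09%) at an unadjusted p under 0.05.

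In all, 27 lists of genes were followed, with each gene read by its brightest probe. Of the 20886 genes named on the array, 995 (4.76%) had an unadjusted p under 0.05, 441 (2.11%) higher and 554 (2.65%) lower. No member of any list had an adjusted p under 0.05, so that the lists are described below by the sign of the differences, their median and the members with an unadjusted p under 0.05.

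**Figure D1:**
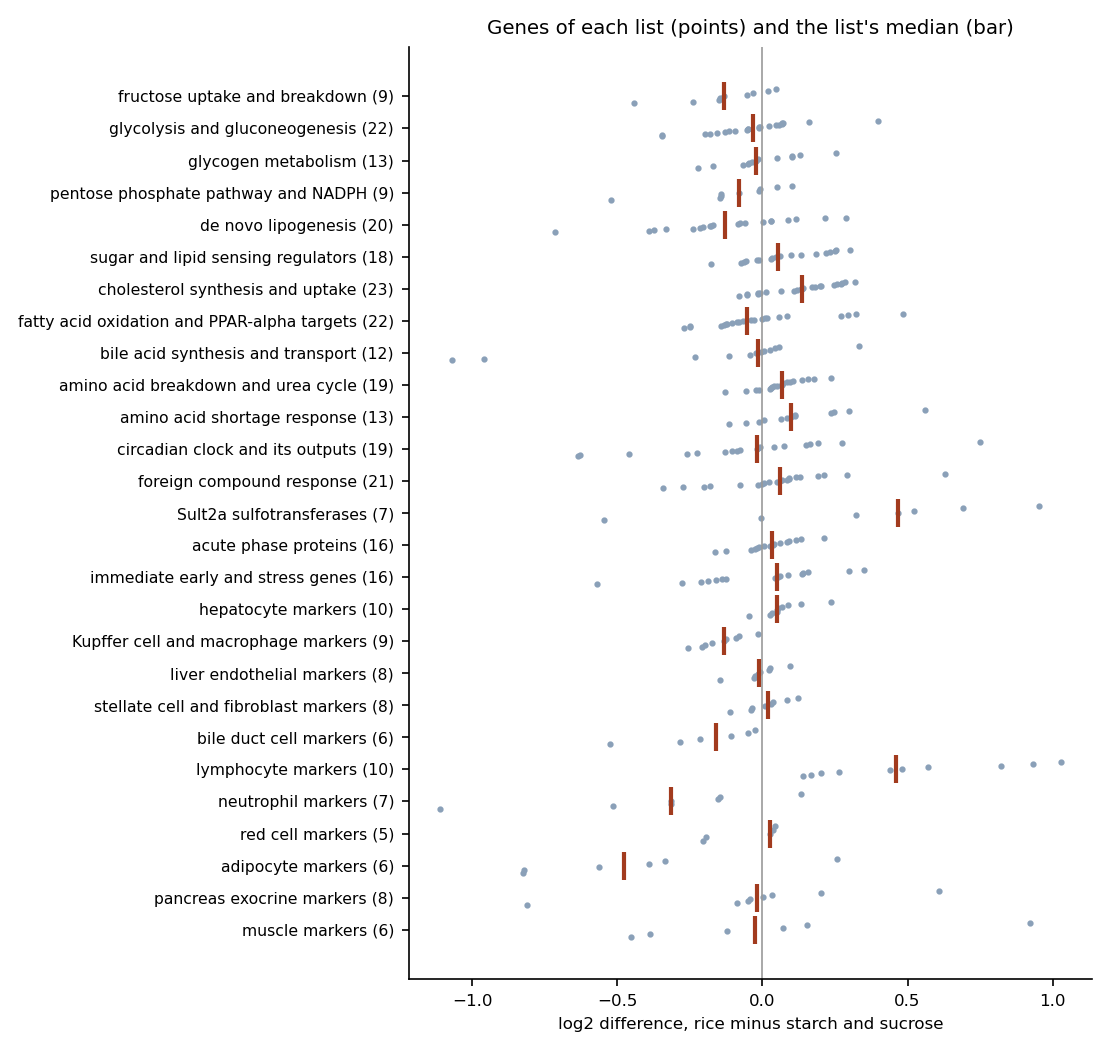
Log2 difference between rice and starch and sucrose (x axis) for the genes of each list (points, one per gene read by its brightest probe) and the median of the list (bar); the number of genes on the array is in brackets. Most medians lie close to 0, between -0.16 and 0.14, and those of the Sult2a, lymphocyte, neutrophil and adipocyte lists, at 0.47, 0.46, -0.31 and -0.48, lie further out.

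Of the 9 genes of fructose uptake and breakdown, 0 had an unadjusted p under 0.05, and 7 differences were below 0, with a median of -0.13. Khk, the ketohexokinase that traps fructose in the liver, had log2 levels of 7.203, 7.67 and 7.54 in Ctrl and 7.09, 7.46 and 7.13 in RS, beside 7.01, 7.57 and 7.11 in DJ and 6.98, 7.38 and 7.17 in DJ526. The groups overlapped, and the difference was -0.15 (95% confidence interval -0.42 to 0.12, adjusted p = 0.975). Slc2a5, a fructose transporter, was at 1.19, 0.11 and 0.97 in Ctrl and 0.15, 0.67 and 0.41 in RS, and at -1.0, 0.20 and 1.00 in DJ and -0.03, 0.25 and 0.44 in DJ526. DJ replicate 1 was the lowest mouse and Ctrl replicate 1 the highest, the groups overlapped, and the difference of -0.44 had an interval of -1.11 to 0.22. Tkfc, which phosphorylates the glyceraldehyde made from fructose, differed by -0.24 (-0.54 to 0.06). The median of the list was -0.19 between DJ and Ctrl and -0.02 between DJ526 and RS, and the within-slide medians were -0.22, 0.02 and -0.03.

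Glycolysis and gluconeogenesis gave a median of -0.03 over 22 genes, of which 14 were below 0, and 22 of 22 intervals lay within 1 log2 unit. Gpi1, glucose-6-phosphate isomerase, was the 1 member with an unadjusted p under 0.05. It was at 5.68, 6.13 and 6.29 in Ctrl and 5.37, 5.45 and 5.07 in RS, and at 5.22, 5.55 and 5.53 in DJ and 5.01, 5.47 and 5.14 in DJ526. Ctrl stood above the other 3 groups, and RS, on the same carbohydrate, lay among the rice-fed mice. The difference was -0.35 ± 0.12 (SE, adjusted p = 0.975), with -0.60 between DJ and Ctrl, -0.09 between DJ526 and RS and within-slide values of -0.81, 0.13 and 0.14. Its other 2 probes gave -0.32 and -0.28. Pklr, the pyruvate kinase that ChREBP is known to induce, differed by -0.35 (-0.87 to 0.18). G6pc and Pck1, which drive glucose production, differed by 0.07 (-0.32 to 0.46) and 0.16 (-0.03 to 0.35).

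Glycogen genes had a median of -0.02 over 13 members and genes of the pentose phosphate pathway and NADPH supply one of -0.08 over 9, with 0 members of either at an unadjusted p under 0.05. Gys2, the liver glycogen synthase, differed by -0.22 (-0.52 to 0.08). Ppp1r3g, a subunit that directs protein phosphatase to glycogen, differed by 0.25 (-0.45 to 0.96) and ranged from 2.59 in DJ replicate 1 to 4.96 in DJ replicate 3. G6pdx, which starts the pentose phosphate pathway, was at 0.15, 3.51 and 3.06 in Ctrl and 0.25, 1.43 and 2.11 in RS, and at 1.06, 1.11 and 1.11 in DJ and 0.92, 2.198 and 0.99 in DJ526. The starch and sucrose mice held both the lowest and the highest level, and the difference was -0.52 (-1.70 to 0.66), -1.04 without Ctrl replicate 1 and -0.20 without Ctrl replicate 2. Tkt, a transketolase of the same pathway, differed by -0.15 (-0.39 to 0.10).

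**Figure D2:**
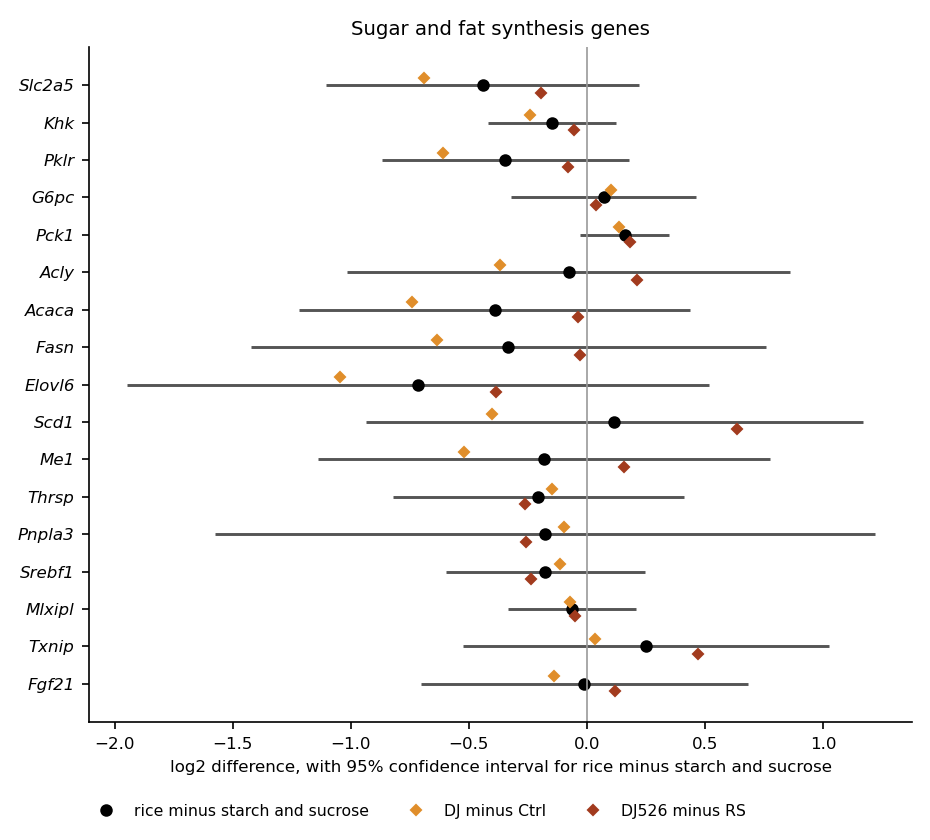
Log2 difference between rice and starch and sucrose for genes of sugar handling and fat synthesis (black points, lines are 95% confidence intervals), with the DJ minus Ctrl and DJ526 minus RS differences (diamonds). Every interval holds 0; it spans -0.03 to 0.35 for Pck1 and -1.95 to 0.52 for Elovl6.

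For 19 of the 20 genes of de novo lipogenesis, all but Mid1ip1, the standard deviation between mice of a group was larger than the difference between the diets. Fasn, the fatty acid synthase, had log2 levels of 1.94, 4.34 and 4.36 in Ctrl, 2.06, 3.10 and 3.87 in RS, 2.27, 3.66 and 2.81 in DJ and 2.09, 3.87 and 2.97 in DJ526. The lowest mouse of every group was replicate 1, the groups overlapped throughout, and the difference was -0.33 (-1.43 to 0.76, adjusted p = 0.975). Elovl6, which lengthens palmitate, was at 4.03, 6.30 and 6.35 in Ctrl, 3.41, 5.62 and 5.79 in RS, 4.19, 5.25 and 4.09 in DJ and 3.55, 5.75 and 4.37 in DJ526. Its difference, -0.72 (-1.95 to 0.52), was the lowest of the 20 genes. Acly, Acaca and Me1, which supply acetyl-CoA, malonyl-CoA and NADPH, differed by -0.08 (-1.02 to 0.86), -0.39 (-1.22 to 0.44) and -0.18 (-1.14 to 0.78). Scd1, the desaturase, differed by 0.12 (-0.94 to 1.17), Thrsp by -0.21 (-0.82 to 0.41) and Pnpla3, a lipid droplet lipase that follows carbohydrate supply, by -0.18 (-1.58 to 1.22), while its other probe gave 0.33 (-1.25 to 1.91).

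The median of the list was -0.13, with 13 of 20 below 0, and the within-slide medians were -0.52, 0.36 and -0.47. Leaving out Ctrl replicate 1 moved the median to -0.31, and leaving out Ctrl replicate 2 moved it to 0.03. Within groups the median standard deviation of the 20 genes was 0.635, beside 0.191 for all probes above background on all arrays. For Fasn it was 1.01, more than in 99.0% of those probes, and for Pnpla3 1.29, more than in 99.6%. Dgat1 and Dgat2, the last enzymes of triglyceride synthesis, had the smallest of the list, 0.148 and 0.133. Replicate 1 was the lowest mouse of its group in 19 of the 20 genes for Ctrl, 16 for RS, 13 for DJ and 16 for DJ526. Over all those probes it was the lowest in 27.5%, 37.6%, 36.2% and 44.9%. What the mice numbered 1 share is not given in the labels. Mid1ip1, which activates acetyl-CoA carboxylase, was the 1 member with an unadjusted p under 0.05 (0.0105). It was at 3.89, 4.00 and 4.02 in Ctrl and 3.64, 3.67 and 4.01 in RS, and at 3.47, 3.65 and 2.97 in DJ and 3.38, 3.70 and 3.81 in DJ526. The DJ mice lay below all Ctrl mice, and the DJ526 mice overlapped the RS mice. The difference was -0.37 ± 0.12 (SE, adjusted p = 0.975), with within-slide values of -0.50, -0.34 and -0.38.

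**Figure D3:**
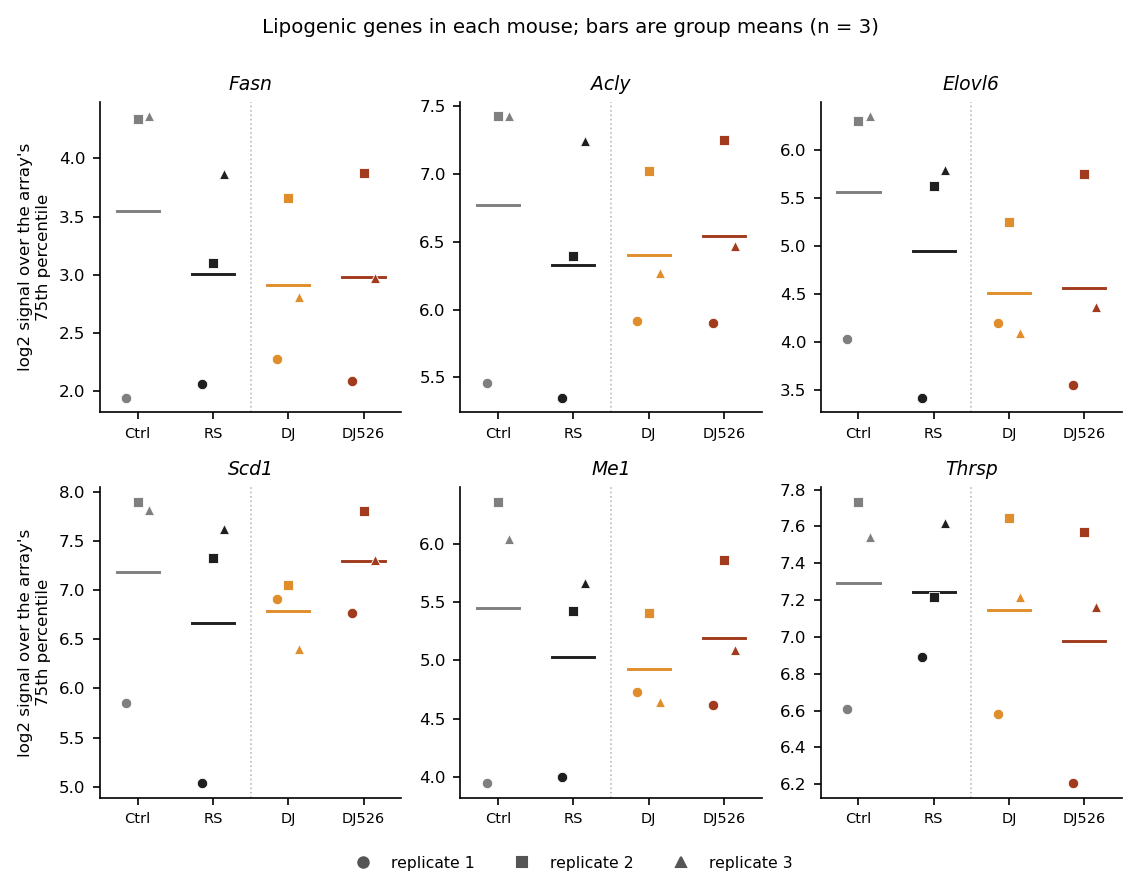
Log2 level (y axis) of 6 lipogenic genes in each mouse, by group; symbols give the replicate number, bars the group means, and the dotted line parts starch and sucrose from rice. Replicate 1 is the lowest mouse of both starch and sucrose groups in each panel, and Fasn spans 1.94 to 4.36 within Ctrl alone.

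The promoters of Fasn and Thrsp are shown because replicate 1 was the lowest mouse of every group for both genes and both hold CCAAT boxes, the sites of the general factor NF-Y, which is known to act beside SREBP at lipogenic genes. The sequences are those of RefSeq on GRCm38.p6, each the 120 bases before the start site on the minus strand, with capitals for CCAAT or its reverse complement ATTGG. That of Fasn lies at chr11:120824548-120824667 and holds 3 matches, which begin 90, 62 and 59 bases before the start, the last pair overlapping. That of Thrsp lies at chr7:97417551-97417670 and holds 2, which begin 79 and 52 bases before the start.
Fasn: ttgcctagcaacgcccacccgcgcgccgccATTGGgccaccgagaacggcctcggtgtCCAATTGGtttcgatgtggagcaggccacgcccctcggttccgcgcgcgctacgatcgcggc
Thrsp: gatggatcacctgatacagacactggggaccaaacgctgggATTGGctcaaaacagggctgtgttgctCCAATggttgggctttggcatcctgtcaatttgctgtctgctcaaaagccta
Windows of 250 bases before the start were found for 16 of the 20 lipogenic genes, of which 9 held CCAAT on either strand in at least 1 window. The E-box CACGTG, which reads the same on both strands and is bound by USF, was in windows of 2 of the 16. Of all 32851 windows, counted singly and not by gene, 33.8% held CCAAT and 6.0% held CACGTG. The 16 genes had 18 windows in all. A gene with more than 1 window had more places for a match, so that the counts of genes and the shares of windows differ in unit. A match describes the letters of the window and not a site in use.

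The 18 sugar and lipid sensing regulators had a median of 0.05 with 12 above 0, and 17 of 18 intervals lay within 1 log2 unit. Mlxipl differed by -0.06 (-0.33 to 0.21) and Srebf1 by -0.18 (-0.60 to 0.24). Txnip, a target of ChREBP that follows glucose, was at 3.15, 1.93 and 2.87 in Ctrl and 2.41, 3.90 and 2.19 in RS, and at 2.26, 2.41 and 3.38 in DJ and 3.99, 2.80 and 3.12 in DJ526. The highest RS mouse and the highest DJ526 mouse were alike, and the difference was 0.25 (-0.53 to 1.03). Fgf21, a hormone that the liver releases after sugar, differed by -0.01 (-0.70 to 0.68). Nr1h2, the oxysterol receptor LXR-beta, was the 1 member with an unadjusted p under 0.05 (0.0447), with a difference of 0.10 and an interval of 0.0028 to 0.19.

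Genes of cholesterol synthesis and uptake, which SREBP-2 is known to drive, had 17 of 23 differences above 0 and a median of 0.14, and 0 had an unadjusted p under 0.05. Sqle, the squalene epoxidase, was at 1.56, 4.38 and 4.44 in Ctrl and 2.01, 3.48 and 4.58 in RS, and at 3.55, 3.90 and 3.64 in DJ and 2.78, 4.43 and 3.84 in DJ526. The lowest mice were replicate 1 of Ctrl and of RS, and the upper levels were alike on both sides. The difference was 0.28 (-0.94 to 1.51), and it was -0.19 without Ctrl replicate 1. Cyp51, a demethylase of lanosterol, differed by 0.32 (-0.48 to 1.11). The within-slide medians of the list were 0.07, 0.37 and -0.44, and without Ctrl replicate 1 its median was -0.09.

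Fatty acid oxidation and targets of PPAR-alpha had a median of -0.05, with 14 of 22 below 0. Cyp4a10 and Cyp4a14, hydroxylases that respond to PPAR-alpha, had the largest differences above 0, at 0.32 (-0.63 to 1.28) and 0.48 (-0.23 to 1.19). Cyp4a14 was at 7.63, 6.04 and 5.77 in Ctrl and 6.77, 6.09 and 5.56 in RS, beside 6.77, 6.98 and 7.35 in DJ and 7.10, 6.24 and 6.33 in DJ526. Its highest mouse was Ctrl replicate 1, the mouse with the lowest Fasn.

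Bile acid synthesis held the largest differences of any metabolic list. Cyp7a1, the rate-limiting enzyme of bile acid synthesis, had log2 levels of 1.20, 1.28 and 2.08 in Ctrl and 1.12, 0.98 and 1.64 in RS, and of 1.42, 0.09 and -0.53 in DJ and 0.32, 0.57 and 0.69 in DJ526. The levels of 5 of the 6 rice-fed mice lay below all 6 mice on starch and sucrose, and that of DJ replicate 1 lay among the latter. The difference was -0.96 ± 0.29 (SE, 95% confidence interval -1.60 to -0.31, 1.94-fold lower in rice), with an unadjusted p of 0.0075 and an adjusted p of 0.975. It was -1.19 between DJ and Ctrl and -0.72 between DJ526 and RS, and -0.10, -1.27 and -1.12 within slides.

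Cyp8b1, which makes cholic acid, was at 0.25, 1.03 and 0.27 in Ctrl, 0.30, -0.14 and 0.22 in RS, -0.13, 0.40 and 1.11 in DJ and -1.35, -0.61 and -3.91 in DJ526. The DJ526 mice were the low ones, and DJ lay among the mice on starch and sucrose. The difference of -1.07 ± 0.47 (SE, unadjusted p = 0.0447, adjusted p = 0.975) was made of -0.06 between DJ and Ctrl and -2.08 between DJ526 and RS. The test of the difference between them had an adjusted p of 0.828. Without DJ526 replicate 3 it was -0.58. Within slides it was -0.64, 0.68 and -2.17.

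Abcb11, the pump that exports bile salts into bile, was at 4.98, 5.30 and 5.12 in Ctrl and 4.90, 5.05 and 5.02 in RS, and at 5.22, 5.78 and 5.15 in DJ and 5.34, 5.33 and 5.56 in DJ526. The DJ526 mice lay above every mouse on starch and sucrose, and 2 of the DJ mice did not. The difference was 0.33 ± 0.11 (SE, unadjusted p = 0.0094, adjusted p = 0.975), with 0.09, 0.49 and 0.39 within slides. The other 9 genes of the list, among them Cyp27a1 at 0.06 and Nr0b2, the repressor SHP, at -0.01, had unadjusted p-values above the threshold, and the median of the 12 was -0.01.

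Of the clock genes, Per2 had the smallest unadjusted p of all 58 genes named here except Olfr209. Per2, a repressor of the circadian loop, was at -0.56, -0.64 and -0.41 in Ctrl and -0.69, -0.53 and -0.37 in RS, and at -1.41, -1.60 and -1.67 in DJ and -1.19, -0.49 and -0.63 in DJ526. The DJ mice stood apart from both starch and sucrose groups, as did DJ526 replicate 1, and the other DJ526 mice did not. The difference was -0.63 ± 0.12 (SE, unadjusted p = 0.00023, adjusted p = 0.966), 1.55-fold lower in rice. It was -1.03 between DJ and Ctrl and -0.24 between DJ526 and RS, and these differed by 0.79 (unadjusted p = 0.0068, adjusted p = 0.632). Within slides it was -0.88, -1.03 and -0.40. The list as a whole had a median of -0.02, with 7 of 19 above 0. In all, 2 of its members, Per2 among them, had an unadjusted p under 0.05, both lower in rice. Nr1d1, Dbp and Cry1, which swing widely over the day, differed by 0.75 (-0.37 to 1.87), 0.08 (-1.02 to 1.17) and -0.46 (-1.44 to 0.52).

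**Figure D4:**
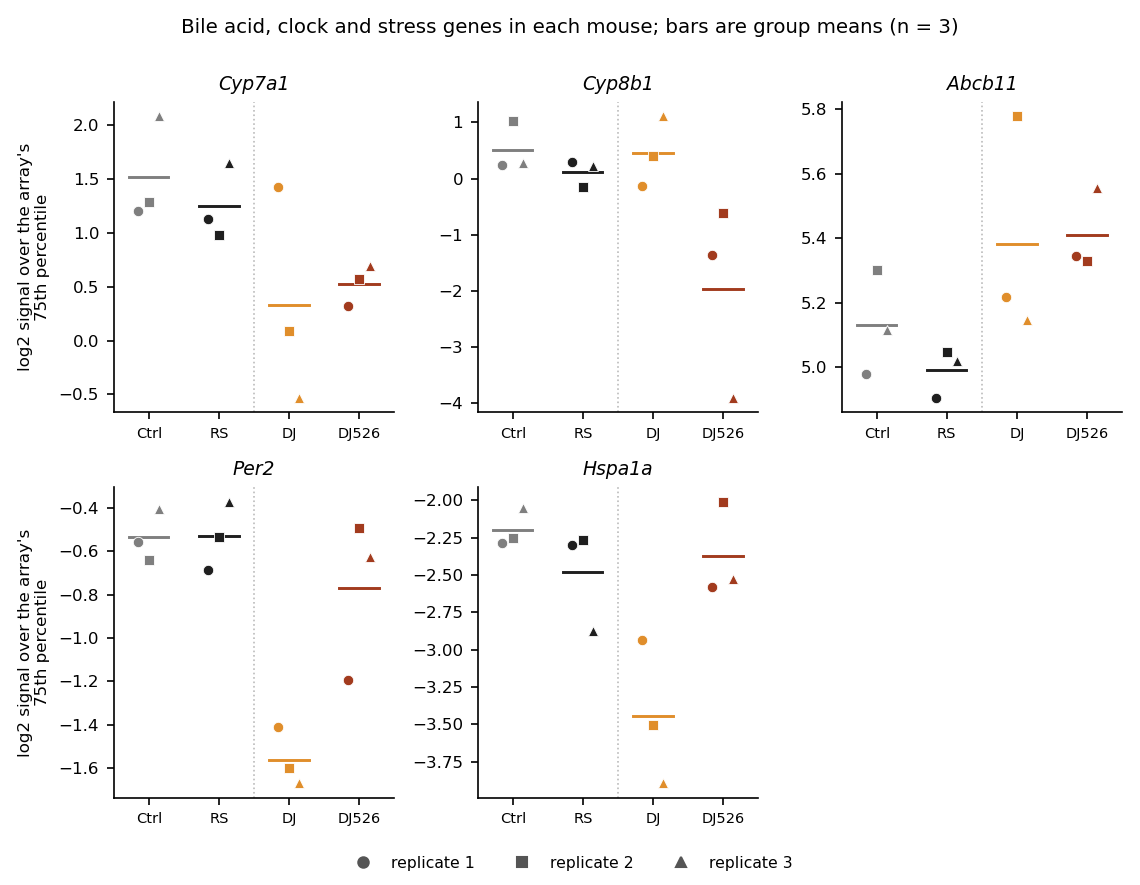
Log2 level (y axis) of Cyp7a1, Cyp8b1, Abcb11, Per2 and Hspa1a in each mouse, by group; symbols give the replicate number, bars the group means, and the dotted line parts starch and sucrose from rice. The lowest levels of Per2 and Hspa1a are in DJ mice and those of Cyp8b1 in DJ526 mice.

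Genes of amino acid breakdown and the urea cycle had a median of 0.07 with 15 of 19 above 0, and 19 of 19 intervals lay within 1 log2 unit. Tat and Sds, which degrade tyrosine and serine, differed by 0.24 (-0.24 to 0.71) and 0.18 (-0.24 to 0.60). The amino acid shortage response had a median of 0.10 with 10 of 13 above 0. Sesn2, a leucine sensor induced by ATF4, was its 1 member with an unadjusted p under 0.05 (0.0111). It was at 0.60, 0.52 and 0.31 in Ctrl and 0.63, 0.86 and 0.54 in RS, and at 0.85, 0.80 and 1.02 in DJ and 0.85, 0.64 and 0.72 in DJ526. The DJ mice lay above all Ctrl mice, and RS replicate 2 lay with the rice-fed mice. The difference was 0.24 ± 0.08 (SE, adjusted p = 0.975).

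The foreign compound response had a median of 0.06 over 21 genes. Cyp1a1, the main target of the aryl hydrocarbon receptor, was the 1 member with an unadjusted p under 0.05 (0.0418). It was at -5.08, -4.62 and -5.91 in Ctrl and -4.07, -4.54 and -3.42 in RS, and at -3.66, -3.87 and -4.32 in DJ and -4.54, -3.92 and -3.56 in DJ526. All 3 Ctrl mice were below every other mouse, and the other 3 groups overlapped. The difference of 0.63 ± 0.27 (SE, adjusted p = 0.975) was made of 1.25 between DJ and Ctrl and 0.01 between DJ526 and RS, and within slides it was 1.54, 0.22 and -0.58.

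The Sult2a sulfotransferases, which conjugate bile acids and steroids, had the highest median of the metabolic lists, at 0.47 over 7 genes, and 0 of the 7 had an unadjusted p under 0.05. Sult2a4 was at 1.08, -0.22 and -0.20 in Ctrl and 4.999, 3.81 and 3.78 in RS, and at 5.29, 5.03 and -0.85 in DJ and 2.45, 4.91 and 2.14 in DJ526. Ctrl and RS lay apart on the same carbohydrate, and DJ replicate 3 lay with Ctrl and not with the other DJ mice. The difference was 0.95 (-1.17 to 3.08), and that of Sult2a1 was 0.69 (-1.21 to 2.597). Without DJ replicate 3 these were 1.95 and 1.59, without DJ replicate 1 they were 0.42 and 0.20, and the within-slide medians of the list were 3.14, -1.59 and -0.50. Members of this family are near copies of each other, so that their probes may share signal.

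Acute phase proteins had a median of 0.03 over 16 genes. Crp was the 1 member with an unadjusted p under 0.05 (0.0127), at 0.21 ± 0.07 (SE, adjusted p = 0.975). Immediate early and stress genes had a median of 0.05 over 16. Hspa1a, an inducible heat shock protein, was at -2.29, -2.25 and -2.05 in Ctrl and -2.30, -2.27 and -2.87 in RS, and at -2.94, -3.50 and -3.90 in DJ and -2.58, -2.01 and -2.53 in DJ526. The DJ mice were below every other mouse, and DJ526 lay with Ctrl and RS. The difference was -0.57 ± 0.18 (SE, unadjusted p = 0.0087, adjusted p = 0.975). It was -1.25 between DJ and Ctrl and 0.11 between DJ526 and RS (unadjusted p of the difference between them 0.0031, adjusted p = 0.552), and -0.74, -1.42 and 0.50 within slides.

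Genes whose 6 rice and 6 starch and sucrose arrays did not overlap numbered 23 of the 15566 genes above background on all arrays (0.148%), with 7 higher (0.045%) and 16 lower (0.103%) in rice. They were picked for this separation, so that their values are a description. The 8 genes with the largest differences below 0 were, in this order, Smpdl3b, H1f7, Tsku, Wnt5b, Crym, Glrx5, Pik3cb and Dhrs7, and those described above 0 were Zfpm1, Magi1, H2bc4, Myo3b, Map2k5 and Sephs1. Their adjusted p-values lay between 0.966 and 0.975. The differences ran from -0.74 to -0.20 and from 0.17 to 0.34.

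Tsku, a secreted protein made by the liver, was at -1.995, -1.86 and -1.87 in Ctrl and -1.51, -1.47 and -1.70 in RS, and at -2.09, -2.41 and -2.92 in DJ and -2.32, -2.39 and -1.998 in DJ526. The gap between the highest rice mouse and the lowest Ctrl mouse was narrow, and RS lay highest. The difference was -0.62 ± 0.13 (SE, adjusted p = 0.975, 1.54-fold lower in rice), with -0.56 between DJ and Ctrl and -0.67 between DJ526 and RS. Wnt5b, a Wnt ligand, was at 1.61, 1.32 and 1.75 in Ctrl and 1.4998, 1.26 and 1.53 in RS, and at 0.68, 0.99 and 1.16 in DJ and 1.13, 0.95 and 0.83 in DJ526. Both rice groups lay wholly below, by -0.54 ± 0.10 (SE, adjusted p = 0.966). Within slides the difference of Tsku was -0.18, -1.17 and -0.53 and that of Wnt5b -0.88, -0.30 and -0.56.

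Glrx5, a mitochondrial glutaredoxin of iron-sulfur cluster assembly, was at 4.63, 4.68 and 4.71 in Ctrl and 4.53, 4.66 and 4.55 in RS, and at 4.26, 4.44 and 4.52 in DJ and 4.17, 4.46 and 4.18 in DJ526. The difference was -0.29 ± 0.06 (SE, adjusted p = 0.975). Smpdl3b, a membrane phosphodiesterase, and H1f7, a linker histone of male germ cells, had the largest differences, -0.74 ± 0.21 and -0.63 ± 0.19 (SE), and were among the dimmest, at means of -5.75 and -6.13 in rice. Dim probes close to H1f7 on the array had a median difference of -0.10 between rice and starch and sucrose, and those close to Smpdl3b one of -0.06. Crym, a thyroid hormone binding protein, differed by -0.34, Pik3cb, a catalytic subunit of PI 3-kinase, by -0.21 and Dhrs7, a short-chain dehydrogenase, by -0.20.

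Zfpm1, the GATA cofactor FOG-1, was at 3.14, 3.26 and 3.31 in Ctrl and 3.16, 3.19 and 3.14 in RS, and at 3.61, 3.53 and 3.34 in DJ and 3.60, 3.43 and 3.73 in DJ526. It had the largest difference above 0 of these genes, 0.34 ± 0.06 (SE, adjusted p = 0.966, 1.26-fold higher in rice), and its other probe gave 0.34 as well. Magi1, a scaffold of cell junctions, was at 0.37, 0.42 and 0.43 in Ctrl and 0.29, 0.24 and 0.42 in RS, and at 0.81, 0.65 and 0.60 in DJ and 0.49, 0.78 and 0.61 in DJ526. The difference was 0.29 ± 0.06 (SE, adjusted p = 0.975), but its other, dimmer probe gave -0.17. H2bc4, a histone H2B, differed by 0.20, Myo3b, a myosin, by 0.20, Map2k5, a kinase of the ERK5 cascade, by 0.17 and Sephs1, a selenophosphate synthetase, by 0.17. With DJ and RS exchanged, as a supplementary sample table of the study lists their array identifiers, 22 of the 58 named genes changed sign, among them Tsku, Magi1, Per2 and Hspa1a. Of those that kept their sign, Zfpm1 was then at 0.0079, Wnt5b at -0.055, Cyp7a1 at -0.036 and Glrx5 at -0.12, all closer to 0, and Cyp8b1 was at -1.41.

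**Figure D5:**
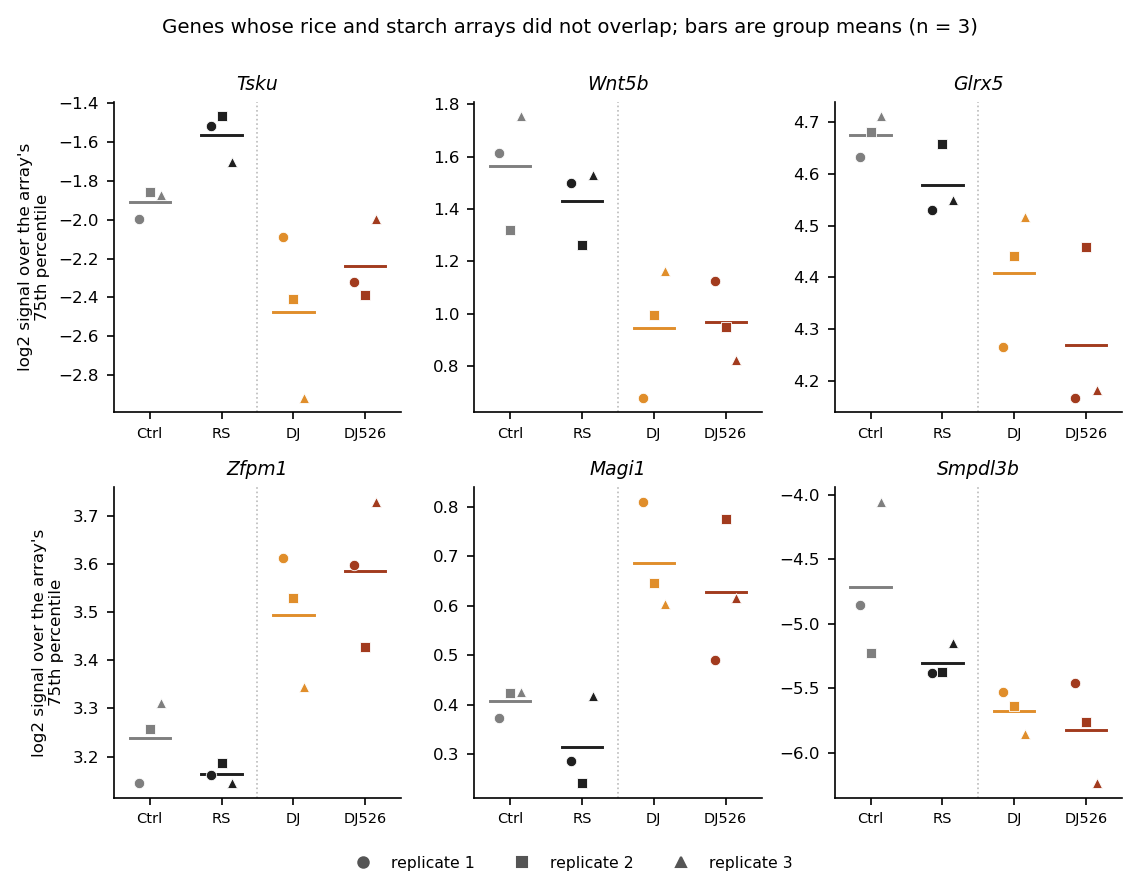
Log2 level (y axis) of 6 genes chosen because the rice and the starch and sucrose arrays did not overlap, in each mouse, by group; symbols give the replicate number, bars the group means, and the dotted line parts starch and sucrose from rice. Tsku, Wnt5b, Glrx5 and Smpdl3b lie lower and Zfpm1 and Magi1 higher in all 6 rice-fed mice.

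DJ against Ctrl and DJ526 against RS share no array and both set rice against starch and sucrose, without and with resveratrol. Across the 27285 probes above background on all arrays, their log2 differences had a Pearson r of -0.068, a description over probes, which are not independent. Slide 2 held most of the DJ and most of the RS mice. A difference between that slide and the others therefore enters the comparisons with opposite signs. In this r and in the directions given below, it cannot be told apart from a response to the diets. In DJ against Ctrl, 1529 of these probes (5.6%) had an unadjusted p under 0.05, and in DJ526 against RS 1490 (5.46%). In all, 129 were in both, 8.44% of the first and 8.66% of the second. Both comparisons come from the same fit and use the same estimate of the spread of a probe. Their p-values are therefore not independent, and a probe with a small spread can pass more easily in both. Of these 129 probes, 38 differed in the same direction (17 higher and 21 lower in rice) and 91 in opposite directions. Among the genes of the 38 were Zfpm1 (0.26 and 0.42), Wnt5b (-0.62 and -0.46), Tsku (-0.56 and -0.67), Magi1 (0.28 and 0.31), Glrx5 (-0.27 and -0.31), Dhrs7 (-0.21 and -0.19), H2bc4 (0.19 and 0.22) and Pik3cb (-0.18 and -0.24).

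The 3 probes called between DJ526 and RS were those of Olfr638, Olfr209 and Gpr31b, named here for their small number after their values were seen. They were lower in DJ526, by -3.11 (adjusted p = 0.0103), -2.15 (0.0261) and -3.14 (0.0261). The count of calls was 0 with only these 6 arrays in the fit and with the replicate number as a block. It was also 0 in an unpaired t-test after adjustment and without RS replicate 2 or DJ526 replicate 1, and 28 without RS replicate 3. Olfr209, an olfactory receptor, was at -4.34, -4.19 and -4.19 in DJ526, between -2.69 and -2.29 in Ctrl and DJ and in RS replicates 1 and 2, and at -1.45 in RS replicate 3. DJ526 was low and DJ was not, so that the difference between rice and starch and sucrose, -1.07 ± 0.17 (SE, adjusted p = 0.719), was that of 1 rice. Blocking on the slide gave 3 calls of 39429 probes in limma (0.00761%) between rice and starch and sucrose, all lower in rice: Olfr209 (-1.29, adjusted p = 0.0469), the vomeronasal receptor Vmn2r120 (-2.53, adjusted p = 0.0469) and a probe without a gene name. That fit sets DJ replicate 1 against Ctrl and DJ526 against RS replicate 3 and does not use slide 2. The probe of Vmn2r120 was well above background on RS replicate 3 alone, at -4.48, and between -9.39 and -8.72 on the other 11 arrays.

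Of the 20886 genes named on the array, Cep72, a centrosomal protein, was the 1 above background on all 6 rice arrays and on 0 of the starch and sucrose arrays. It was at -6.83, -6.91 and -6.65 in DJ and -6.47, -6.50 and -6.61 in DJ526, and its measured levels lay between -7.89 and -6.76 on the other side. Cep72 was picked for this split, so that its higher level in rice is a description. The levels of the sides overlapped, and the measured difference was 0.79 (adjusted p = 0.975). As a bound, each starch and sucrose level was raised to the lowest signal well above background on its array, where that was higher. Against this, the mean in rice was at least 1.27-fold higher. The signals of Cep72 are among the dimmest read here.

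Markers of cell types were read as a check of the tissue. All 10 hepatocyte markers were above background on all arrays, and 9 of the 10 differences were above 0, with a median of 0.05 and a range of -0.05 to 0.24. The log2 of the summed level of the markers ran from 10.9 to 11.1 in the rice and from 10.9 to 11.0 in the starch and sucrose mice. In bulk liver, fewer cells of a type and less RNA per cell cannot be told apart. Kupffer cell and macrophage markers had 9 of 9 differences below 0 and a median of -0.13 (within slides -0.60, 0.05 and 0.34), with log2 sums of 6.30 to 6.89 in rice and 6.32 to 7.44 in starch and sucrose. Liver endothelial, stellate and red cell markers had medians of -0.01, 0.02 and 0.02, and bile duct markers had 6 of 6 below 0 with a median of -0.16.

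Lymphocyte markers had 10 of 10 differences above 0 and a median of 0.46, with log2 sums of 5.16 to 5.45 in rice and 4.47 to 5.48 in starch and sucrose, and within-slide medians of 1.76, -0.56 and 0.60. Ms4a1, the B cell antigen CD20, was at -2.83, -3.94 and -2.46 in Ctrl and -0.72, -1.71 and -2.76 in RS, and at 0.75, -3.01 and -2.24 in DJ and 0.24, -1.33 and -2.66 in DJ526. The high mice were replicate 1 of DJ, DJ526 and RS, and the difference was 1.03 (-0.48 to 2.54). Nkg7, a granule protein of natural killer and T cells, differed by 0.17 (unadjusted p = 0.0072, adjusted p = 0.975). Neutrophil markers had a median of -0.31, which was 0.12 without Ctrl replicate 3, and 6 of 7 below 0, where Ltf, lactoferrin, was at -5.44, -1.56 and -2.19 in Ctrl and between -6.21 and -4.01 in the other 9 mice. Adipocyte markers had a median of -0.48, with 3 of 6 genes above background on all arrays, and pancreas and muscle markers, mostly dim, had medians of -0.02 and -0.03. Of these last lists, Cela1 (0.61, unadjusted p = 0.0129) and Mb (0.92, unadjusted p = 0.0022, not well above background on any array) had an unadjusted p under 0.05. Nkg7, Ms4a1, Ltf, Cela1 and Mb were picked out after their values were seen. The part of these cell types in the differences of other genes was not tested.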

How the data were processed

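Liver RNA of 12 mice was labelled with Cy3 and hybridised to Agilent mouse arrays. The authors deposited the scanner output of each array, with the processed signal intensity of every spot after background subtraction on a linear scale (Feature Extraction 11.5.1.1, per the file headers), and a table of globally normalized intensity values, equal, within a relative tolerance of 1e-04, to that signal times 1 factor per array for 99.8% to 99.9% of probes. The files hold no column of the mean pixel of a spot, so that the median pixel was used in the normexp alternative. Groups were taken from the sample titles. RNA was extracted with Trizol per the labels and with RNeasy per the paper's methods.

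Control spots and spots flagged as outliers (93 to 197 per array) were left out, spots of a probe were averaged, and each array was scaled to its 75th percentile (953 to 1167) on the log2 scale. Median signals were 89.7 to 115, and 68 probes lacked a value on some array, which the fit left out there. Of 39429 probes, 27508 were named through the RefSeq or Ensembl accession of the probe (20886 genes) and 11921 had no name. The model of limma 3.58.1, run in R 4.3.3, held the 4 group means, with a prior on the variance that depends on mean signal, on 8 residual degrees of freedom. The contrast was the mean of DJ and DJ526 minus the mean of Ctrl and RS, and all probes entered the Benjamini-Hochberg adjustment (threshold 0.05). An unpaired t-test on the same levels was an alternative. The methods name such a test after global normalization, with a Z ratio and a q-value that were not used here. Further alternatives were other background corrections, scalings and filters, and blocks for slide and replicate number. The exchanged labels of DJ and RS and the omission of single mice were run as well. The fit was tested on simulated data. Other tools were Python 3.11.15, numpy 2.4.6, pandas 2.3.3 and matplotlib 3.10.9.

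Where a gene had more than 1 probe, the brightest was used. Named were the genes called in the fit or with the slide as a block, up to 8 genes each way with the largest differences among named genes above background on all arrays whose rice and starch and sucrose arrays did not overlap and the 5 of these with the smallest p, a fixed set of genes of sugar and fat synthesis, the members of each list other than a cell type list with an unadjusted p under 0.05 or else its 2 largest differences, and up to 4 genes each way with bounds only. Some genes that this rule names are not reported here. The members, lists and genes were chosen with earlier results of these data known. Of 345 genes of the 27 lists, 337 were on the array by name. The main fit did not take mice of equal replicate number as pairs. Of 18 pairs of equal number, 6 had a correlation of deviations over 0.1 (-0.354 to 0.406), which does not decide whether they share something.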

Additional observations from a re-analysis of the deposited data

Results flagged for a closer look

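Of 116 sets of 6 levels (58 named genes on both carbohydrate sides), 6 held a mouse whose gap to the nearest other mouse, as a share of the range of all 6, was above the Dixon critical value for 6 samples. Chance alone gives about 1 such set in 20. On the starch and sucrose side, RS replicate 3 stood apart for Vmn2r120 (0.897, at -4.48 beside -9.21 to -8.72), Hspa1a (0.701, at -2.87 beside -2.30 to -2.05) and Olfr209 (0.679, at -1.45 beside -2.69 to -2.29). RS replicate 2 did so for Srebf1 (0.794, at 1.21 beside 1.94 to 2.13). On the rice side, DJ526 replicate 2 stood apart for G6pdx (0.850, at 2.198 beside 0.92 to 1.11) and DJ replicate 3 for Crym (0.632, at -1.41 beside -0.99 to -0.74).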

How the results depend on the processing

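Of the values of named genes under the alternatives, 1319 kept their direction and side of the threshold, 56 changed sign and 2 passed the threshold. Of the medians of lists, 620 moved by less than the spread of the list's level between mice of a group, and 1 moved further. That spread can exceed the median itself, as in de novo lipogenesis (0.496 beside -0.127), so that this count does not show stable medians. Changes of sign are among the 620. The median of cholesterol synthesis and uptake, for example, went from 0.136 to -0.229 with the slide as a block. Between rice and starch and sucrose, 0 probes were called under every alternative other than the slide as a block, with 3. The unpaired t-test on the levels used here called 0 after adjustment and 1461 before it. The count at an unadjusted p under 0.05, 1802, was 4364 with the slide block, 3968 with DJ and RS exchanged and 2754 without RS replicate 3, and lay between 1272 and 2153 under the others. Leaving out single mice gave 0 to 0 calls for rice, 0 to 1 for DJ against Ctrl, 0 to 28 for DJ526 against RS (28 without RS replicate 3) and 0 to 19 for the difference between both (19 without DJ replicate 1).

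With the slide as a block, the calls were 8 for DJ against Ctrl, 40 for DJ526 against RS and 17 for the difference between them. Olfr209 was then -1.29 and Vmn2r120 -2.53, past the threshold, and the median of amino acid breakdown and the urea cycle was -0.115. Signs changed for Cyp51 (-0.10), Fgf21 (0.30), Mlxipl (0.028), Ppp1r3g (-0.28), Scd1 (-0.30), Sds (-0.20), Sqle (-0.40) and Tat (-0.11). DJ526 against RS gave 1 call with normexp, 7 with probes above background on all arrays, 8 with those above background on all arrays of a group, 1 without the variance trend, 0 with only its own 6 arrays and 0 with the t-test. Fgf21 was 0.031 with normexp and 7.1e-05 with quantile scaling.

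With the replicate number as a block, 0 probes were called for rice and 0 for DJ526 against RS. Of 18 pairs of equal number, 6 had a correlation over 0.1, and 6 of 12 arrays correlated best with their own number. The best partner was sought among the arrays of the other groups, each with 3 arrays, 1 of them of equal number. Some arrays would therefore match their own number without any pairing. The count over 0.1 has no pairs of unequal number beside it. These counts therefore do not decide whether mice of equal number share something, and replicate 1 was the lowest mouse of its group in most lipogenic genes.

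With DJ and RS exchanged, signs changed for Abcb11 (-0.056), Cep72 (-0.080), Crp (-0.099), Crym (0.11), Cyp4a10 (-0.41), Cyp4a14 (-0.41), Cyp51 (-0.013), G6pc (-0.23), Gys2 (0.084), H2bc4 (-0.065), Hspa1a (0.40), Magi1 (-0.076), Map2k5 (-0.024), Mid1ip1 (0.035), Nr1h2 (-0.032), Per2 (0.40), Pik3cb (0.034), Ppp1r3g (-0.19), Scd1 (-0.0074), Sqle (-0.060), Tsku (0.29) and Vmn2r120 (0.52).

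Leaving out single mice, the range held both signs for Acly (-0.41 to 0.15), Fgf21 (-0.24 to 0.28), G6pc (-0.045 to 0.23), Me1 (-0.56 to 0.047), Mlxipl (-0.13 to 0.034), Pnpla3 (-0.63 to 0.25), Ppp1r3g (-0.017 to 0.57), Scd1 (-0.29 to 0.36) and Sqle (-0.19 to 0.59). The range kept its sign but moved over 1.5 times for Acaca (-0.71 to -0.21), Cyp4a10 (0.027 to 0.70), Cyp4a14 (0.31 to 0.77), Cyp51 (0.015 to 0.51), Elovl6 (-1.10 to -0.46), Fasn (-0.73 to -0.11), Gys2 (-0.33 to -0.14), Khk (-0.23 to -0.088), Pklr (-0.50 to -0.19), Sds (0.029 to 0.28), Slc2a5 (-0.68 to -0.17), Srebf1 (-0.32 to -0.074), Tat (0.056 to 0.34), Thrsp (-0.38 to -0.012), Tkt (-0.25 to -0.082), Txnip (0.071 to 0.52) and Vmn2r120 (-1.34 to -0.16), as well as for G6pdx, Cyp8b1, Sult2a1 and Sult2a4, whose values stand above. The cause of these changes was not tested. With 3 mice per group, dim probes have the widest intervals, with a median standard error of 0.311 for those not above background on every array.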
